A study of Homo sapiens with 2 samples.

Results

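The THO complex is the core of TREX, the assembly that couples the making of an mRNA to its export from the nucleus. THO contacts the RNA helicase DDX39B, which loads the adaptor ALYREF onto the transcript, and the NXF1 receptor then takes the packed mRNA through the nuclear pore. THOC2 is the large scaffold on which the other subunits sit, and THOC1 lies beside it in the core. THOC5 and THOC7 are coiled-coil subunits, while THOC3 and THOC6 are WD-repeat proteins that fold into propellers. Here, all 6 subunit genes were examined in melanoma cells after transfection of an siRNA against THOC2. Their probes were chosen by gene symbol in the table of normalized values. These are 6 of the 34757 gene symbols on the arrays, with 8 of the 58199 probes, 2 each for THOC2 and THOC3 and 1 each for THOC1, THOC5, THOC6 and THOC7.

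A375 is an established human melanoma cell line. An siRNA is a small RNA duplex that directs the cutting of matching mRNAs, and NC is a control siRNA. 1 A375 culture was transfected with si-THOC2 and 1 with NC, and the sample descriptions place both at 48 h. RNA of each culture was hybridized to 1 Agilent array with probes of 60 bases. The title of the THOC2 siRNA sample carries the number 2147, whose meaning is not given in the sources used here, and the methods list several THOC2 siRNAs without naming the one put on the array. For both samples, the source field names the opposite condition to the title and the description. The titles and descriptions were followed, and with the opposite assignment the sign of each difference would turn. THOC2, the targeted gene, was lower on the array that the titles and descriptions assign to si-THOC2. There was 1 array per condition, so differences between cultures were not measured, no test of the conditions was possible, and each difference given compares these 2 arrays only. In RNA from whole cultures, fewer cells of a kind and less RNA per cell cannot be told apart.

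The share of probes that the scanner software called well above background was 42.3% with NC and 39.4% with si-THOC2. Of 8 melanocyte lineage markers, MITF, SOX10, DCT and S100B had a probe well above background on both arrays. DCT was just above it, with highest signals of 18.0 with NC and 24.4 with si-THOC2. MLANA had such a probe on the THOC2 siRNA array alone (highest signal 18.7), and PMEL, TYR and TYRP1 on neither. AXL, NGFR and VIM, listed as markers of neural crest and mesenchymal-like melanoma cells, were well above background on both. Of the epithelial markers, EPCAM, KRT5 and CDH1 were not, and KRT14 was, and its highest signal read 83.9 on the NC array and 104 after si-THOC2. The leukocyte marker PTPRC and the endothelial marker PECAM1 each had a probe just above background, with highest signals of 27.4 and 16.2 with NC and of 28.9 and 17.6 with si-THOC2.

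The probes define what was measured, so 1 per gene is shown here, the one whose sequence has the most reading frames without a stop codon, a rule set after the sequences were seen. They are printed from the deposited annotation, 5′ to 3′, with positions on hg19. The THOC2 probe A_33_P3235690 lies at chrX:122747960-122748019 on the minus strand. The THOC1 probe A_23_P78372 lies at chr18:226842-226901 on the minus strand. The THOC5 probe A_23_P109470 lies at chr22:29916023-29916082 on the minus strand. The THOC7 probe A_32_P136402 lies within chr3:63820842-63821001 on the minus strand. The THOC3 probe A_33_P3336642 lies at chr5:175394946-175395005 on the minus strand. The THOC6 probe A_23_P37949 lies within chr16:3076557-3076707 on the plus strand.
THOC2: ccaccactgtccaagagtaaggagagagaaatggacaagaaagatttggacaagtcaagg
THOC1: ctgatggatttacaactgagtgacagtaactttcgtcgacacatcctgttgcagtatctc
THOC5: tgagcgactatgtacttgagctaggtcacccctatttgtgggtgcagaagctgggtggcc
THOC7: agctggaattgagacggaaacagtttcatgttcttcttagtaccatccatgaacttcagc
THOC3: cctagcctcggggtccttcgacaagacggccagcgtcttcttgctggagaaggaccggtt
THOC6: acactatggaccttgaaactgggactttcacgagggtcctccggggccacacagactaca

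The remaining probes were A_24_P177353 of THOC2 (chrX:122734486-122734545) and A_32_P41405 of THOC3 (chr5:175386774-175386833), both on the minus strand. The THOC6 probe spans 151 bases of the genome and the THOC7 probe 160, so that 91 and 100 bases of genome between their ends are not in the probe. The other 6 probes are unbroken stretches of the genome. The probes of THOC2 lie 13414 bases apart. Probe GC content ran from 35.0% (A_24_P177353) to 61.7% (A_33_P3336642). Each probe was printed on 1 spot, so none has a repeat of its own. Of the 8, only A_24_P177353 shared a stretch of 20 bases, on either strand, with another probe of the array, a probe for PIK3C2B. Whether A_24_P177353 also takes up PIK3C2B RNA was not analysed here. In the deposited Gene Ontology annotation, the term for the THO complex as part of the transcription export complex is carried by 6 genes, which are these 6. The term for the THO complex itself is carried by 5 of them, without THOC3. The wider term for the transcription export complex is carried by 13 genes.

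THOC2 mRNA was lower on the array of the THOC2 siRNA. Throughout, a signal is the processed signal of the scanner software, and the error after ± is the software's own estimate for that spot. The signal of probe A_24_P177353 read 136 ± 13.9 with NC and 40.9 ± 5.22 with si-THOC2. The signal of probe A_33_P3235690 was 67.3 ± 7.36 with NC and 35.1 ± 4.78 with si-THOC2. Both probes were low on the THOC2 siRNA array, and at neither did the signals of the 2 arrays overlap within these errors. The unprocessed spots also read lower with si-THOC2. At A_24_P177353 the mean over the spot's pixels was 183 (SD 30.1, 44 pixels) with NC and 82.4 (SD 15.5, 42 pixels) with si-THOC2, above local backgrounds of 25 and 23.5. At A_33_P3235690 it was 111 (SD 24.1, 44 pixels) and 76.8 (SD 22.1, 48 pixels), above local backgrounds of 26 and 23, and the arrays overlapped within the pixel SDs there. A pixel SD is the spread inside a spot and not the error of its mean.

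To compare the arrays, the 75th percentile of all log2 signals on an array (6.62 with NC, 6.31 with si-THOC2) was subtracted from each value. After this scaling, A_24_P177353 had a log2 fold change of -1.42, with a 95% interval of -1.89 to -0.96 from the software's spot errors, so 37.3% of the NC level remained. A_33_P3235690 had a log2 fold change of -0.63 (-1.13 to -0.14), so 64.6% remained. These intervals cover the spots only and leave out differences between cultures. The technical SD of a log2 fold change, taken from probes printed on several spots at a like signal, was 0.139 and 0.140. The mean of both probes was -1.03, or 49.1% of the NC level. The probes differed from each other by 0.79 on the log2 scale, against a technical SD of 0.197 for that difference. With si-THOC2, both still lay above the lowest signal called well above background on that array, by 2.58 times and 2.21 times. Of 308 negative-control spots on that array, the 99th percentile was 14.1 and the brightest read 39.2. The THOC2 probes read 40.9 and 35.1 there. The largest fall that could have been measured was 6.92-fold at A_24_P177353 and 3.42-fold at A_33_P3235690.

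**Figure D1:**
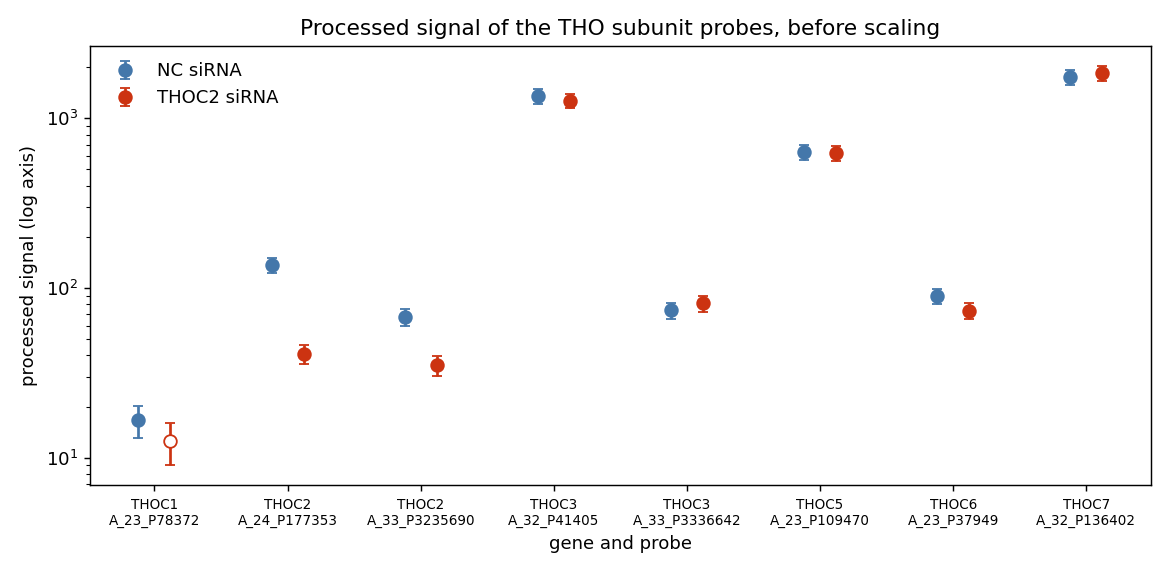
Processed signal (log axis) of each THO subunit probe on the NC siRNA array (blue) and the THOC2 siRNA array (red), before scaling between arrays. Points are single spots, bars the scanner software's error of the spot, and the open point is a signal not well above background. The red points of THOC2 lie clearly under the blue ones, at 40.9 against 136 and 35.1 against 67.3.

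A probe was called when it differed by 2-fold or more, the fold used in the study's methods. 1 of the 8 subunit probes passed, A_24_P177353 of THOC2. Of the 25345 probes that stood well above background on either array, 3.33% (844) were lower by 2-fold or more and 2.93% (743) were higher. Signals that did not clear background entered these counts as measured, and with such signals set at the detection limit of their array the counts were 225 and 476. The split also moved with the scaling, to 634 lower and 855 higher with lowess centring, 1511 and 557 without scaling and 1603 and 539 on ACTB. With normexp background correction at an offset of 50, A_24_P177353 was at -0.80 and did not pass. Among the 22207 probes well above background on both arrays, 7 of the 8 subunit probes included, these shares were 0.365% and 0.829%. None of the 500 both-array probes nearest in signal to A_24_P177353 had a lower log2 fold change, and the middle 95% of them ran from -0.62 to 0.79. For A_33_P3235690, 28 of 500 (5.60%) were lower, and its value lay inside the middle 95%, from -0.86 to 0.71. In the part of the array around A_24_P177353 the median log2 fold change was -0.02 over 203 compared probes, and around A_33_P3235690 it was 0.08 over 195.

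**Figure D2:**
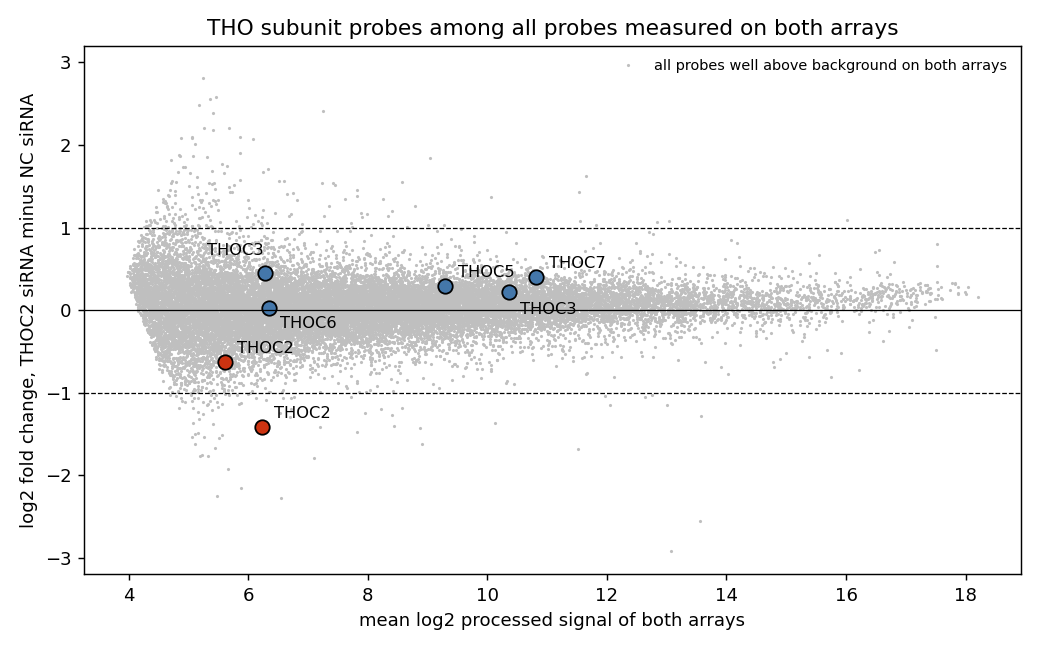
Log2 fold change (THOC2 siRNA minus NC siRNA, scaled on the 75th percentile) against the mean log2 processed signal, for the 22207 probes well above background on both arrays (grey), with THOC2 in red and the other subunits in blue. Dashed lines mark 2-fold, and only 1 THOC2 probe, at -1.42, lies beyond them among the subunits. The THOC1 probe is not drawn, since it was measured on the NC array only.

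None of the 5 probes of THOC3, THOC5, THOC6 and THOC7 reached 2-fold, and THOC1 could not be compared. THOC1, which lies with THOC2 in the core and was first found as a nuclear protein that binds the retinoblastoma protein, was near the limit of the array. The signal of A_23_P78372 was 16.6 ± 3.52 with NC and 12.5 ± 3.48 with si-THOC2, and only the first was well above background. The 2 signals overlapped within their errors. After scaling, the NC value lay under the lowest value that cleared background after si-THOC2, which leaves THOC1 without a fold, and a fall of any size could not have been measured.

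The coiled-coil subunits were bright on both arrays. The signal of the THOC5 probe A_23_P109470 was 630 ± 63.0 with NC and 621 ± 62.2 with si-THOC2. That of the THOC7 probe A_32_P136402 was 1746 ± 175 and 1852 ± 185. Before scaling, the arrays overlapped within the spot errors in both cases. After scaling, the log2 fold change was 0.29 for THOC5 (95% interval -0.11 to 0.69) and 0.40 for THOC7 (-0.01 to 0.80). These are larger than the technical SDs of 0.062 and 0.060, although both lay inside the middle 95% of probes of like signal, which ran from -0.43 to 0.47 and from -0.33 to 0.44. A fall of up to 32.0-fold could have been measured for THOC5 and of up to 88.8-fold for THOC7.

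For the propeller subunit THOC6, the signal of A_23_P37949 was 89.4 ± 9.42 with NC and 73.5 ± 8.04 with si-THOC2, which overlap within the errors. Its log2 fold change after scaling was 0.03 (95% interval -0.40 to 0.46), under the technical SD of 0.138. THOC3, the other propeller subunit, was measured by both of its probes. The signal of A_32_P41405 was 1352 ± 135 with NC and 1270 ± 127 with si-THOC2, which after scaling gave a log2 fold change of 0.22 (-0.18 to 0.62). The signal of A_33_P3336642 was 74.0 ± 8.01 and 81.4 ± 8.75, a log2 fold change of 0.45 (0.02 to 0.88). Before scaling, the arrays overlapped within the spot errors at both THOC3 probes, while the scaled interval of A_33_P3336642 lay wholly on the positive side. Around A_33_P3336642, 45 of 225 compared probes were higher by 2-fold or more and the median log2 fold change was 0.19, and the part of this neighbourhood in the probe's value was not tested. Centring by block of the array left 0.26. At 5q35.2 the genome holds copies of sequence close to THOC3, and whether either probe also takes up RNA from a copy was not analysed here.

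Over the 5 probes of other subunits measured on both arrays, the log2 fold change ran from 0.03 to 0.45 with a median of 0.29, and all 5 were above 0. Of all both-array probes, 56.9% were above 0, with a median of 0.04. For 3 of the 5 the sign came with the scaling, and 2 were above 0 without it. Before scaling, the ratio of THOC2 siRNA to NC was 1.1 for A_33_P3336642 of THOC3 and 1.06 for THOC7, and 0.987, 0.939 and 0.822 for THOC5, A_32_P41405 of THOC3 and THOC6. When scaled on ACTB in place of the 75th percentile, an alternative chosen after seeing the data, the median of these 5 probes was -0.05. The median of all both-array probes was then -0.29. All 5 values lay inside the middle 95% of probes of like signal. THOC7-AS1, an antisense RNA at the THOC7 locus and not a subunit, read 173 with NC and 174 with si-THOC2. After scaling its log2 fold change was 0.31, with a technical SD of 0.101.

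The difference between THOC2 and the other subunits does not depend on a common scaling factor. A_24_P177353 changed by -1.71 on the log2 scale relative to THOC5 (technical SD 0.152), by -1.82 relative to THOC7 (0.151) and by -1.45 relative to THOC6 (0.196). For A_33_P3235690 the same differences were -0.92 (0.153), -1.03 (0.152) and -0.66 (0.197). Relative to the THOC3 probes A_32_P41405 and A_33_P3336642, A_24_P177353 changed by -1.64 and -1.87 and A_33_P3235690 by -0.85 and -1.08. Each of these differences was at least 3.34 times its technical SD and 1.97 times the error from the software's spot estimates. Both multiples were least for A_33_P3235690 against THOC6. These errors cover the spots only. Log2 fold changes of probes of like signal had an SD of 0.41 for A_33_P3235690 and of 0.35 for THOC6. The spread of differences between such probes was not measured. Under the main values and each of the 13 alternatives, both THOC2 probes lay below all 5 other probes. A common shift or a detection filter cannot change differences between probes measured on both arrays, so alternatives of that kind add no check. The mean of the THOC2 probes minus the median of the other 5 was -1.32, and it ran from -1.33 to -1.26 in the alternatives apart from normexp background correction, which gave -0.69.

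**Figure D3:**
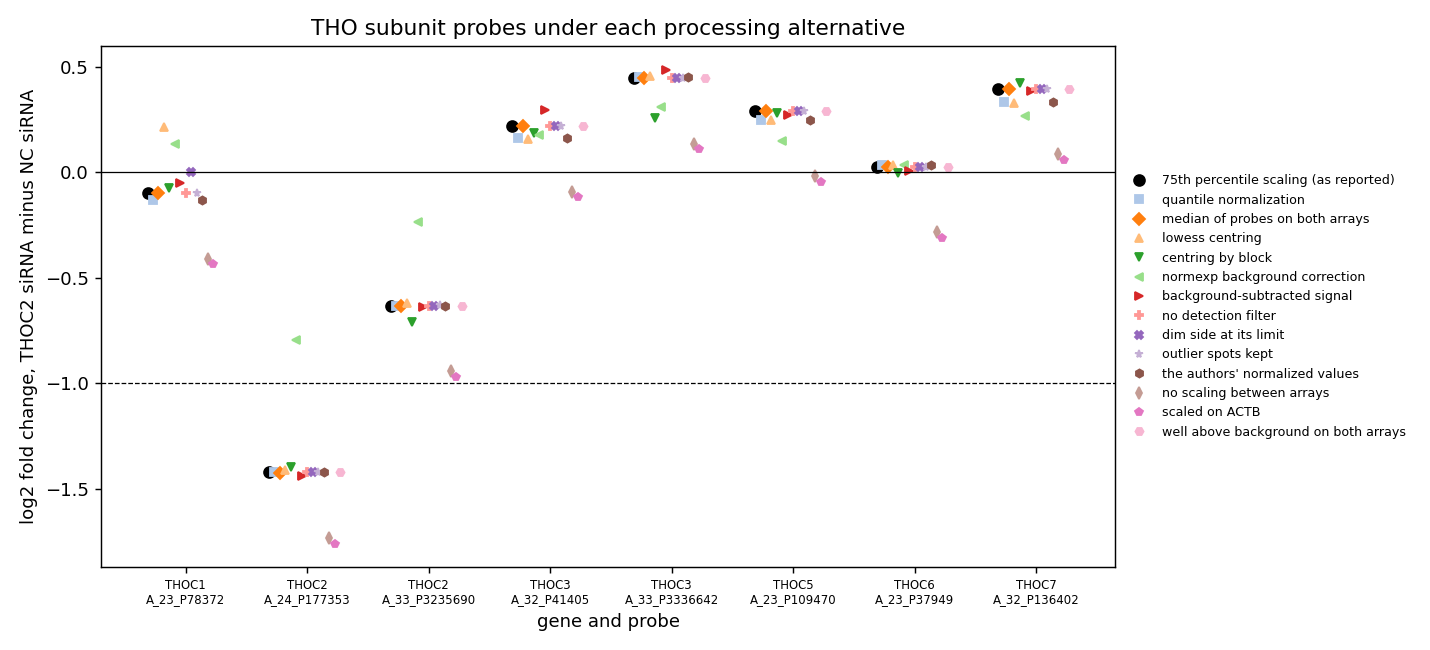
Log2 fold change (THOC2 siRNA minus NC siRNA) of each THO subunit probe as reported (black circle) and under 13 processing alternatives. The dashed line marks a 2-fold decrease, the THOC1 value at 0 stands for no fold, and both THOC2 probes stay under 0 throughout, while THOC5 and A_32_P41405 of THOC3 fall under 0 without scaling and when scaled on ACTB, and THOC6 also with centring by block.

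The genes that work with THO were described from lists of TREX partners, of the separate TREX-2 complex at the nuclear pore, and of the export receptor and cap-side proteins. No gene mean in any of these lists was lower or higher by 2-fold, against 3.34% and 2.96% of all 17514 compared genes. Over probes that cleared background on both arrays, no list gene passed either, against 0.352% lower and 0.837% higher of 15647 genes. Of 9 TREX partners, 8 were compared, 6 above and 2 below 0, with a median log2 fold change of 0.12 against 0.02 over all genes, of which 53.4% were above 0. All genes include those with a probe well above background on 1 array only. Over both-array probes the median was 0.04, and all genes were not matched to the list in signal. The TREX partners ran from -0.10 for CHTOP, an export adaptor, whose signal was 4484 with NC and 3386 with si-THOC2, to 0.27 for the helicase DDX39A, with 18294 and 17775. The list is not the same as the deposited Gene Ontology term for the transcription export complex, which DDX39A does not carry. LUZP4 was below background on both arrays. DDX39B, which THO contacts directly, had signals of 279 and 258 and a log2 fold change of 0.20, and ALYREF had 5116 and 4659 and 0.17.

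Of the 6 TREX-2 genes, 5 were above 0 and 1 below, with a median of 0.09. CETN2, a centrin, was lowest at -0.17 (282 with NC and 201 with si-THOC2), and MCM3AP, the scaffold of TREX-2, was highest at 0.36, with probes at 0.29 and 0.44. Of the 8 export receptor and cap genes, 5 were above 0 and 3 below, with a median of 0.14. NXF1 was at 0.14. The highest was ZC3H18, which links the cap complex to further factors, at 0.29 over probes at 0.18 and 0.39. NCBP1, the large cap-binding subunit, had the lowest mean, -0.70, a value and rank that rest in part on a signal that did not clear background. Its probe measured on both arrays was at -0.23. Over such probes the small cap-binding subunit NCBP2, named after its value was seen, was lowest at -0.25. The other NCBP1 probe read 18.5 on the NC array and 6.69 after si-THOC2, where it did not clear background, and no fold can be given for it. The medians of these 3 lists moved with the scaling, and lay at -0.22, -0.24 and -0.20 when scaled on ACTB. The median of all both-array probes moved as well, from 0.04 to -0.29. The reference genes themselves spread from -0.31 for TBP over 0.07 for GAPDH and 0.11 for HPRT1 to 0.34 for ACTB, more widely than the 5 other THO probes.

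**Figure D4:**
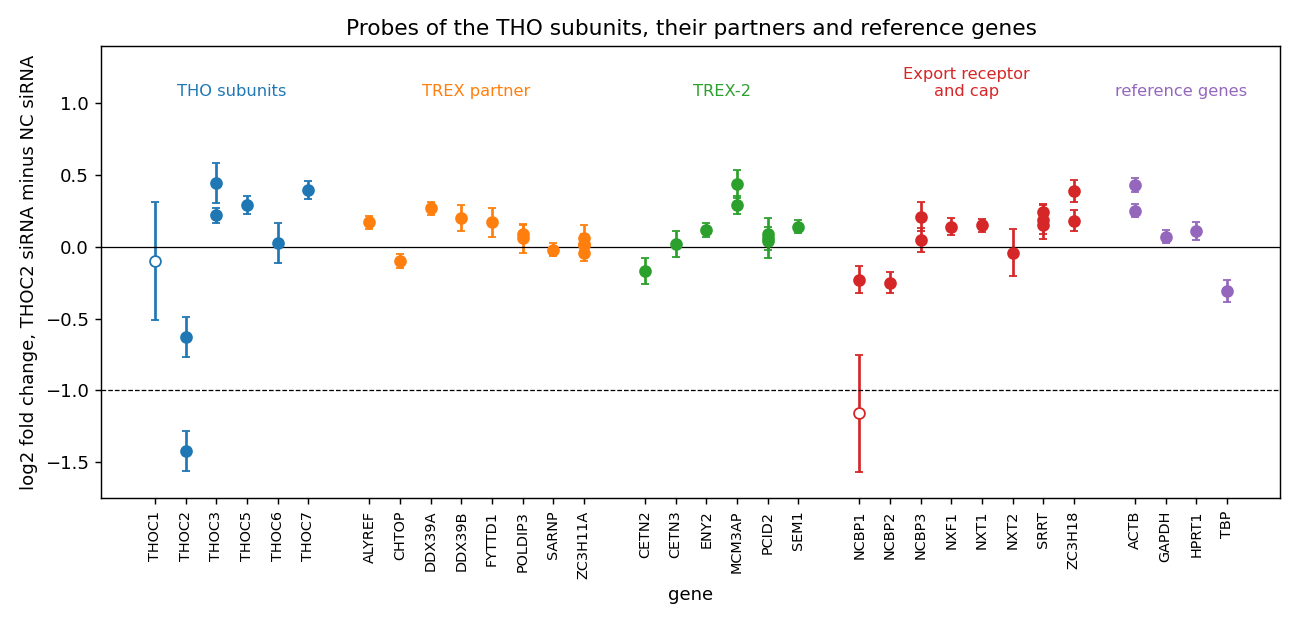
Log2 fold change (THOC2 siRNA minus NC siRNA, scaled on the 75th percentile) of each compared probe of the THO subunits, the TREX partners, TREX-2, the export receptor and cap genes and the reference genes. Bars are technical SDs from repeated spots of like signal, open points were well above background on the NC array only, the dashed line marks a 2-fold decrease, and the lowest point measured on both arrays is the THOC2 probe at -1.42.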

How the data were processed

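RNA of 1 A375 culture per condition (NC, si-THOC2) was hybridized to 1 one-colour array each. The deposited scanner files give the intensity of every spot, as the authors obtained it with Agilent Feature Extraction 10.7.1.1, which subtracts background and corrects trends over the array. The authors also deposited normalized log2 values, used as an alternative. Their comparison table (fold changes, directions) was not used. The methods' Student test needs replicates and was left out.

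After removal of controls and of outlier-flagged spots (none was saturated), log2 signals were averaged per probe (58199 probes) and reduced by the array's 75th percentile. Compared probes were well above background on 1 or both arrays. Other signals entered the values as measured, and no single fold is given from them. An alternative set them at the lowest signal well above background of their array. Repeated spots of 300 probes gave technical SDs, as the median of the 20 nearest in signal. Precision is limited by the number of arrays. Named genes were all members, the lowest and highest gene of each list with a probe well above background on both arrays, and ACTB, GAPDH, TBP and HPRT1. DDX39B, ALYREF, NXF1, LUZP4 and NCBP2 were named beyond this rule, after their values were seen. SEM1 and NCBP3 were found under older symbols by Entrez identifier. No genes were ranked by likeness of pattern, since 2 arrays give 1 difference per probe. Members and lists were chosen with earlier results of these data known. Alternatives were quantile, median, lowess (span 0.3) and block centring (16 by 8 blocks), normexp (offset 50), the background-subtracted signal, other detection filters, outliers kept, the authors' values, no scaling and scaling on ACTB. Python 3.11.15 with numpy 2.4.6, pandas 2.3.3, statsmodels 0.14.6 and matplotlib 3.10.9 was used, with R 4.3.3 and limma 3.58.1.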

Additional observations from a re-analysis of the deposited data

How the results depend on the processing

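No paired analysis was possible because each condition has a single array. No scaling and scaling on ACTB were chosen after seeing the data. The THOC2 probes had a mean log2 fold change of -1.03, stayed below 0 in each of 13 alternatives and moved with normexp background correction to -0.52, without scaling to -1.34 and on ACTB to -1.36. Under normexp 0 subunit probes passed 2-fold in place of 1, with A_24_P177353 at -0.80 and A_33_P3235690 at -0.23. Normexp was run with an offset of 50 added to each signal, and such a constant makes the folds of dim signals smaller. The signals with NC and si-THOC2 were 136 and 40.9 at A_24_P177353 and 67.3 and 35.1 at A_33_P3235690. The share of the offset in the move was not tested. The median of the other subunit probes, 0.26 with the dim THOC1 signal taken as measured and 0.29 without THOC1, was with it -0.055 without scaling and -0.083 on ACTB. In the remaining alternatives this median lay between 0.164, under normexp, and 0.291, over probes well above background on both arrays. The technical SD of this median was not measured. Without scaling and on ACTB, the TREX partner median of 0.12 became -0.19 and -0.22, the TREX-2 median of 0.09 became -0.22 and -0.24, and the export receptor and cap median of 0.14 became -0.18 and -0.20, which follows from the difference in the scaling factor. Under normexp these 3 medians were 0.011, 0.001 and 0.019, and the TREX-2 median was 0.031 with the authors' normalized values. Calls of 2-fold over all compared probes, 844 lower and 743 higher, became 225 and 476 with dim signals at their limit, 81 and 184 over probes well above background on both arrays, 33 and 79 under normexp, 1929 and 3127 with no detection filter, 1511 and 557 without scaling and 1603 and 539 on ACTB. Depth, as signal over background, prevents any statement on THOC1.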
